A study of Mus musculus with 2 samples.

Results

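The AP-1 transcription factors described here are 10 genes of the basic leucine zipper class: the Fos genes Fos, Fosb, Fosl1 and Fosl2, the Jun genes Jun, Junb and Jund, the related factor genes Atf3 and Jdp2, and the small Maf gene Maff. They were taken by name from a fixed list, which was chosen with earlier results of these data known. All 10 were found among the 13138 genes of the deposited table. Expression was measured by RNA sequencing in 2 libraries of primary mouse chondrocytes, the cells of cartilage, grown outside the animal as micromass cultures, which are dense drops of cells that form cartilage-like tissue. Both libraries carry the strain label C57Bl/6. One culture was transduced with an adenovirus carrying Cre recombinase, the enzyme that cuts out DNA between loxP sites, and has the genotype label hdac3-knockout. The second culture was given a control adenovirus with GFP, a fluorescent protein, and has the genotype label wild-type. The labels give no age, no time after transduction, no number of pooled animals or dishes, and no statement on whether the GFP culture carries loxP alleles. The source name of both samples mentions an acetylation ChIP, whereas their titles, library source and molecule give RNA, and the values are gene counts.

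AP-1 is a dimer. Jun proteins pair with each other or with Fos and ATF proteins, while Fos proteins need a partner of another class, and the pair binds short palindromic DNA sites through its basic region. Many of the genes are immediate early genes, induced within minutes by growth factors, cytokines and mechanical stress through MAP kinases. In cartilage, AP-1 is known for inducing collagenase and stromelysin genes after interleukin-1, and Fos proteins for roles in chondrocyte differentiation. JDP2 is known as a repressor of AP-1 that can recruit a histone deacetylase 3 complex to the Jun gene in mouse embryonal carcinoma cells, and Hdac3 is the gene that the Cre-labelled culture is labelled as lacking.

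With 1 library in each group, no difference could be checked against replicates, no test across libraries was possible and there are no p-values. The scale is that of the authors' log2 normalized counts, which probably shrinks the differences of less abundant genes, and the depth of the libraries is unknown. A difference is the value in the Cre-labelled library minus that in the GFP-labelled library, and a ratio is the difference taken off the log2 scale. The target itself was level: Hdac3 stood at 10.68 in the Cre-labelled library and 10.69 in the GFP-labelled library, so its gene total did not show the labelled knockout, and the names used here for the libraries are those of their labels. Cartilage identity was plain in both, with all 14 chondrocyte markers present at mean log2 values from 11.12 to 20.16. However, all 14 were lower in the Cre-labelled library (median difference -0.48). Of the 12809 genes compared (defined below), 6416 were lower there. All 14 macrophage markers were present (Emr1 under that older symbol). In the Cre-labelled library 10 (71.4%) were higher, against 49.9% of all genes, and 4 were lower. The summed log2 level of the 14 was 15.62 against 14.97. Its largest part was Lyz2, named after its value was seen, at 14.82 against 13.98. Of 11 fibroblast markers, 6 (54.5%) lay above 0 and 5 below, with a median of 0.11. They ranged from -0.32 for Col1a2, named after its value was seen, to 0.65 for Lum. For 8 muscle markers, all above 0 where 49.9% of all genes were, the median was 0.22, with Ttn at 0.67. For 5 endothelial markers, 4 (80.0%) above 0, it was 0.05, with a range from -0.13 for Kdr to 0.23 for Pecam1. Of 6 erythroid markers the table held Alas2, at 0.03, and in bulk samples like these a different share of cells and a different amount of RNA per cell cannot be told apart.

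Promoter sequence is shown for Junb and Maff, the members with the largest differences, and for Fos and Jun, the founding members, which differed by less. Each line gives the 250 bases before the RefSeq start site (GRCm38.p6), written 5′ to 3′ on the gene's strand. Capitals mark a match, on either strand, to TGANTCA (the AP-1 site), TGACGTCA (the cyclic AMP response element, CRE), its looser form TGACNTCA or its core TGACGT. The last 2 patterns were chosen after the letters were seen, and they overlap the CRE. Junb lies on the minus strand at chr8:84978749-84978998, Maff on the plus strand at chr15:79347270-79347519 (the second of its 3 windows), Fos on the plus strand at chr12:85473640-85473889 and Jun on the minus strand at chr4:95052223-95052472.
Junb: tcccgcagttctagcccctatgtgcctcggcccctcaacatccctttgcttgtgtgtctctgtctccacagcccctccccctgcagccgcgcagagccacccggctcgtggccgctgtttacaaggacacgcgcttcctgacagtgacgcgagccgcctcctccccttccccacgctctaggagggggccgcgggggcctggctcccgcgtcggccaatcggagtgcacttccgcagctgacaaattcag
Maff: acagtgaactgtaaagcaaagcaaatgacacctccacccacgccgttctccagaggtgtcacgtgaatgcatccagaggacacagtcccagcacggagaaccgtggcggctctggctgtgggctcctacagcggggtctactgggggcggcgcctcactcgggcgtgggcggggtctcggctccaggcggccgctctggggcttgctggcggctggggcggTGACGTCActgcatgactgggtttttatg
Fos: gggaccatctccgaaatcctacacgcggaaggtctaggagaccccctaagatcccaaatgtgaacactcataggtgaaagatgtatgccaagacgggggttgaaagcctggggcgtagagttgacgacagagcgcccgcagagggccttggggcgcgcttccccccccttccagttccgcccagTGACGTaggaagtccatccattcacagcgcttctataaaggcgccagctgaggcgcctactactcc
Jun: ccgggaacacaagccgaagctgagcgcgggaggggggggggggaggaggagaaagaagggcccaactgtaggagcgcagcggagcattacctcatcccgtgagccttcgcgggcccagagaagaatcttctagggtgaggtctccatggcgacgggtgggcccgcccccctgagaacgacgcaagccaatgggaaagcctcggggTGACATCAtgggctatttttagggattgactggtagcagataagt

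In these windows Maff held the full CRE, 29 bases before its start, Jun held TGACATCA 45 bases before its start, and Fos held the core TGACGT 66 bases before its start. Junb held no match to these patterns. RefSeq windows were given for 9 of the 10 members, 13 windows in all, with 3 each for Jdp2 and Maff. All 250 bases of the Fosl2 window lay in Fosl2 exons of the full annotation. The Jund window ended at 70697738, before the GENCODE start of Jund at 70698949. Neither window therefore shows the bases just before the GENCODE start of its gene. The full CRE was in 1 of the 13 windows and in 2.55% of the 11746 windows of genes compared. The core was in 4 of the 13 windows, 1 each of Fos, Atf3, Jdp2 and Maff, against 9.66%, and TGACNTCA was in 3 of the 13, 1 of Jun and 2 of Maff, against 6.02%. The AP-1 pattern TGANTCA was in none of the 13 windows, against 4.59% of windows of genes compared. That pattern cannot match the TGACATCA of the Jun window, so its absence covers this one form of site only. The CArG box, bound by serum response factor, was also in none of the 13 windows, against 1.17%. Each window covers 250 bases, so sites farther upstream, of this or any other pattern, were not looked for. A loose NF-kappaB pattern was in 9 of the 13 windows and is common, in 61.4% of windows of genes compared. The members with a CRE-type match differed by 0.61 (Maff), 0.30 (Jun), 0.15 (Fos), 0.08 (Atf3) and -0.11 (Jdp2). Junb, with the largest difference at 0.72, held no match. The relation of these matches to the differences was not tested.

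Of the 10 AP-1 genes, 9 were higher in the Cre-labelled library, whereas 49.9% of the 12809 genes compared were. The members were listed with earlier results of these data known, so the counts given here are description and no independent evidence. Genes compared are those whose mean normalized count was 50 or more, which all 10 members passed. The median difference of the members was 0.23, with quartiles of 0.12 and 0.50, against a median of -0.00041 over all genes compared. The differences were modest. Junb and Maff were at least 1.5-fold higher (a log2 difference of 0.58), 2 of 10 members where 2.25% of all genes were, and 0 members were at least 1.5-fold lower, where 0.952% of all genes were. No member reached 2-fold in either direction, a size that 0.734% of all genes reached upward and 0.0703% downward.

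**Figure D1:**
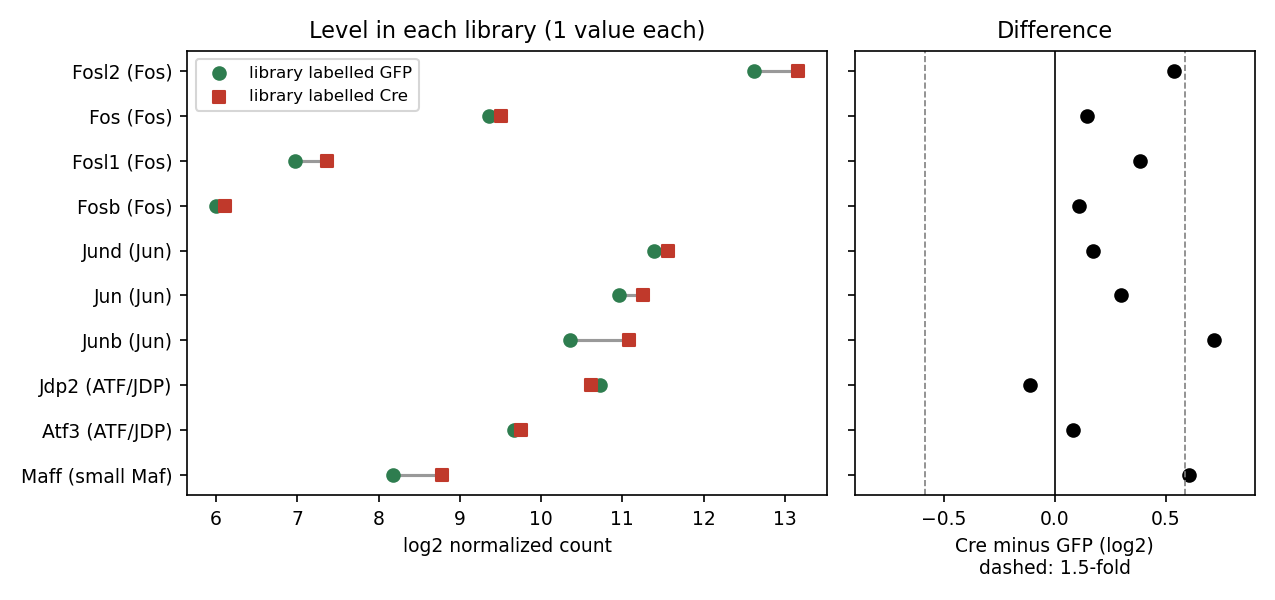
Level of each AP-1 gene in the GFP-labelled library (circles) and the Cre-labelled library (squares), as log2 normalized count, with the difference at right and dashed lines at 1.5-fold. Jdp2 is the one gene with the square to the left of the circle, and Junb has the longest bar, from 10.36 to 11.08.

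The Fos proteins lack the ability to pair with each other and supply the regulated partner of the dimer. Fosl2, which encodes Fra-2, a Fos protein with a known role in cartilage and bone growth, had by far the highest normalized count of the class. Its gene has 4 exons on the plus strand of chromosome 5, at 32135801 to 32157842 (GRCm38). Its normalized count was 9175 in the Cre-labelled library and 6322 in the GFP-labelled library, a ratio of 1.45 and a log2 difference of 0.54, just short of the 1.5-fold line. Fosl1, which encodes Fra-1, a Fos protein without a strong activation domain, had 164 against 126 normalized counts, a difference of 0.39. Reads of Fosl1 are uncertain, since 1163 bases of its exons are shared with Ccdc85b on the opposite strand, which itself differed by 0.14. Fos, the founding immediate early gene, was nearly level at 724 against 654 normalized counts, a difference of 0.15. Fosb, the least abundant member, had 69.2 against 64.1 normalized counts, a difference of 0.11. The class thus ran from one of the more abundant mRNAs to one close to the minimum. All 4 genes lay above 0, where 49.9% of all genes did, and their median was 0.27.

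Jun proteins supply the constant partner of AP-1 and are encoded by genes without introns. Junb, whose protein activates more weakly than Jun and can oppose it, showed the largest difference of the 10 genes. Its locus is chromosome 8, 84974484 to 84978718, minus strand. It had 2160 normalized counts in the Cre-labelled library and 1314 in the GFP-labelled library, a ratio of 1.64 and a difference of 0.72. Prdx2, on the opposite strand, shares 173 exon bases with Junb in the full annotation and differed by 0.17, less than Junb. Jun, on chromosome 4 at 95049034 to 95052222, encodes the strongest activator of the class and had 2446 against 1991 normalized counts, a difference of 0.30. Jund, the Jun gene least tied to induction and present in most resting cells, had 3030 against 2690 normalized counts, a difference of 0.17. Antisense genes overlap Jun by 232 and Jund by 877 exon bases, neither antisense gene is in the table used here, and the strand setting of the counting is not given in the sources used here. In these 2 libraries, then, the 3 Jun genes all lay above 0, where 49.9% of all genes did. The amounts were unequal, with Jund differing least.

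Maff encodes a small Maf protein, which has no activation domain, pairs with itself or with cap'n'collar and some Fos proteins, and is itself induced by inflammatory cytokines. The gene has 3 exons on the plus strand of chromosome 15, at 79346621 to 79359076. Its normalized count was 439 in the Cre-labelled library and 288 in the GFP-labelled library, a ratio of 1.52 and a difference of 0.61. The other small Maf genes, Mafg at 0.34 and Mafk at 0.19, differed by less in the same direction. Both were named after their values were seen. Atf3, a stress-induced repressor or activator according to its partner, was close to level at 862 against 813 normalized counts, a difference of 0.08. Jdp2 was the one member lower in the Cre-labelled library, at 1566 against 1690 normalized counts, a difference of -0.11. Neither of these 2 differences stands out: 54.2% and 41.4% of the 500 genes nearest in level differed by at least as much in either direction.

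The same measure of rank places the other members, as a description of these 2 libraries with no p-value. Among its 500 nearest genes, Maff was matched or exceeded in size by 9 (1.8%) and Junb by 16 (3.2%). For Fosl1 the number was 35, for Fosl2 38 and for Jun 39, which is 7.0%, 7.6% and 7.8%. Jund was matched by 19.4%, Fosb by 29.4% and Fos by 31.0% of their neighbours in level. The spread among neighbours depended on level, with a standard deviation over genes of 0.11 around Fosb and 0.36 around Fosl2. The difference of 0.54 for Fosl2, larger than that of Fosl1, was therefore of similar rank, and Junb, Maff, Fosl2, Fosl1 and Jun were each matched by at most 39 of 500 neighbours.

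**Figure D2:**
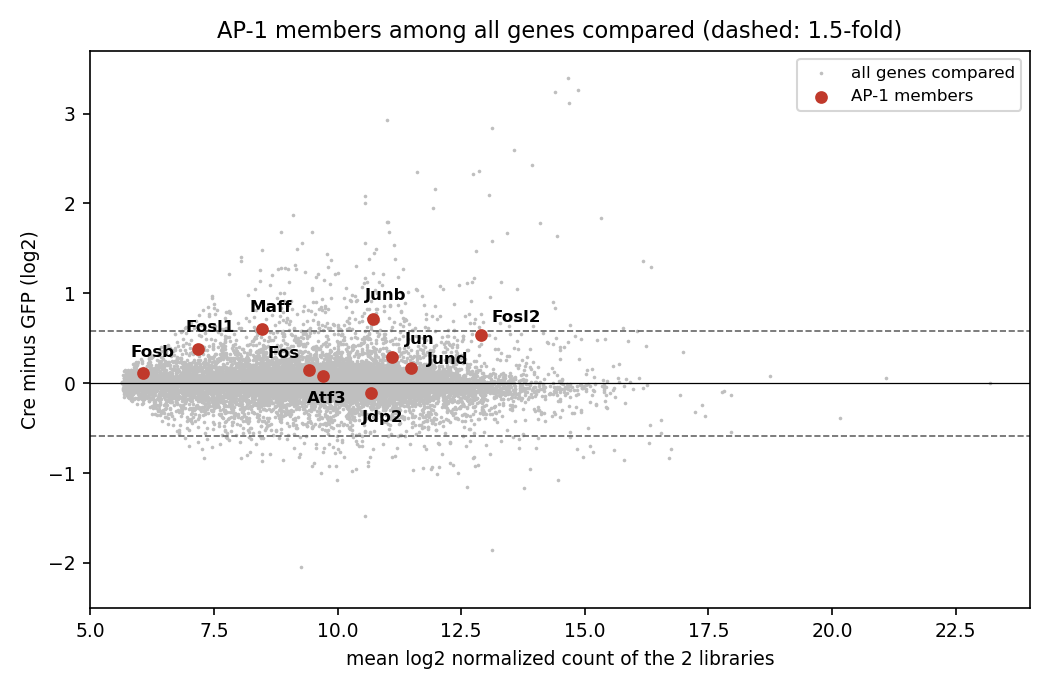
Difference between the Cre-labelled library and the GFP-labelled library (log2, vertical) against the mean log2 normalized count (horizontal) for 12809 genes in grey and the 10 AP-1 genes in red, with dashed lines at 1.5-fold. Junb (0.72) and Maff (0.61) lie above the upper dashed line and Fosl2 (0.54) just under it, while genes of other kinds reach beyond 3.

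To compare levels between genes, normalized counts were divided by exon length in kilobases (kb) from the GENCODE basic set. On this scale Jund was the most abundant AP-1 mRNA in both libraries, at 1817 per kb in the Cre-labelled library and 1613 in the GFP-labelled library. Fosl2 came next, at 1404 and 967 per kb. Junb and Jdp2 followed, in that order in the Cre-labelled library (1194 and 799 per kb) and in the reverse order in the GFP-labelled library (726 and 862 per kb). The order below was the same in both libraries: Jun (767 and 624 per kb), Atf3 (400 and 378), Fos (344 and 310), Maff (191 and 126), Fosl1 (88.1 and 67.4) and Fosb (18.3 and 17.0). With 1 library per group, whether neighbours in this order differ beyond the spread between cultures cannot be said. Strand setting is not given, so how reads in the 877 exon bases that Jund shares with an antisense gene were counted is unknown. The order also depends on exon length. With the lengths of the comprehensive annotation, an alternative chosen after seeing the data, Jund stayed first in both libraries, but in the GFP-labelled library Jdp2 (787 per kb) came before Fosl2 (653) and Jun (624) before Junb (571). In the Cre-labelled library Jun (767) then came before Jdp2 (729), and Fosl2 (948) and Junb (939) were close.

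Within the Fos class, Fosl2 made up 75.7% of the summed level per kb in the Cre-labelled library and 71.0% in the GFP-labelled library. Fos made up 18.5% and 22.8%, and Fosl1 and Fosb together supplied the rest. Within the Jun class, Jund held 48.1% in the Cre-labelled library and 54.4% in the GFP-labelled library, Junb 31.6% and 24.5%, and Jun 20.3% and 21.1%. The summed Fos class was 1.36-fold and the summed Jun class 1.27-fold higher in the Cre-labelled library. Jun class mRNA exceeded Fos class mRNA per kb by 2.04-fold in the Cre-labelled library and 2.18-fold in the GFP-labelled library. These are shares of mRNA, and protein was not measured. The uncertainty over reads of Jund applies to them too. With the comprehensive exon lengths, Fosl2 held 70.3% of the Fos class in the Cre-labelled library and 65.1% in the GFP-labelled library. The ratio of Jun class to Fos class mRNA also depends on exon length, and it was computed with the basic set only.

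**Figure D3:**
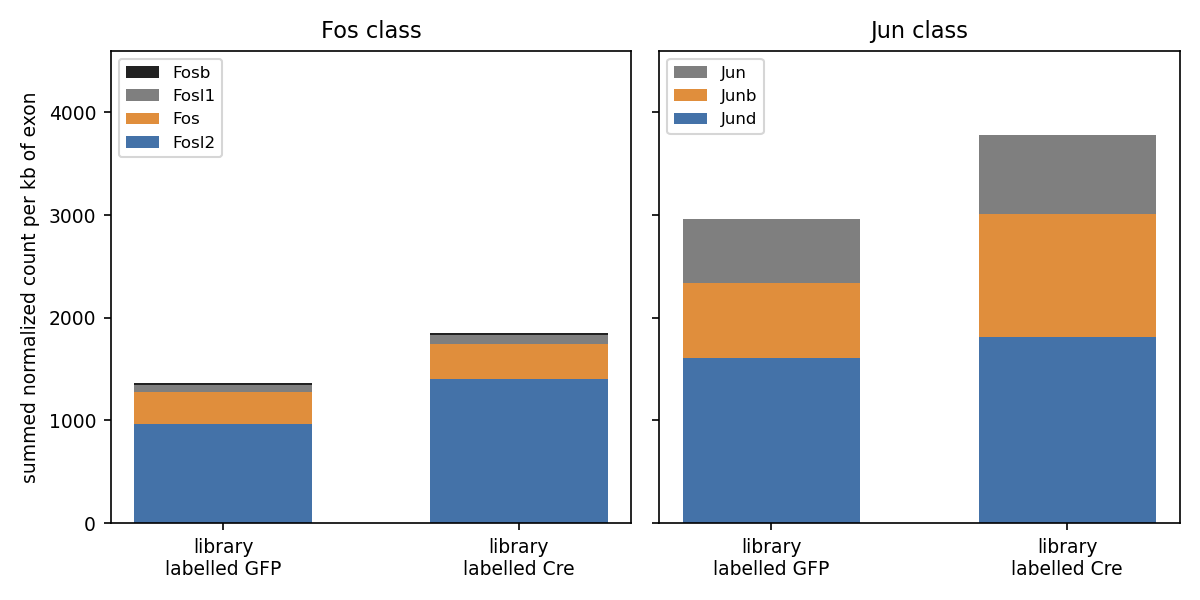
Summed normalized count per kilobase of exon for the Fos class (left) and the Jun class (right) in each library, stacked by gene, with no error bars because each group has 1 library. The taller Cre bars come mostly from Fosl2 (967 to 1404) and Junb (726 to 1194), while Jund is the largest block of the Jun class in both libraries.

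The genes around AP-1 were taken from lists written with earlier results of these data known, so their direction is no independent evidence. Among MAP kinase cascade genes, whose products phosphorylate Jun and Fos proteins and switch on their genes, 20 of 29 (69.0%) lay above 0, against 49.9% of all genes, and the median was 0.04. None of the 29 was 1.5-fold higher, a size reached by 2.25% of all genes. Map3k8, a kinase activated by Toll-like and TNF receptors, lay just short of that line at 0.58, followed by Map2k1 at 0.37 and Map3k1 at 0.36. The kinase genes Mapk8 (JNK1, which phosphorylates Jun) and Mapk14 (p38 alpha) were level at 0.05 and 0.04. MAP kinase phosphatases, feedback inhibitors often induced together with AP-1 genes, had a median of 0.19 with 7 of 8 (87.5%) above 0 and none at 1.5-fold, led by Dusp1 at 0.55, Dusp4 at 0.36 and Dusp6 at 0.34. The list of SRF, TCF and MEF2 factors, which bind the promoters of Fos and Jun, also holds Ets genes and genes of SRF coactivators. Of its 11 genes, 6 (54.5%) lay above 0, none reached 1.5-fold upward and the median was 0.01. Srf itself differed by -0.01, Ets2 by 0.41 and Elk3 by 0.30, while Mef2c, a factor of chondrocyte hypertrophy, differed by -0.47.

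Other immediate early genes did not share one direction. Of 25 measured, 17 (68.0%) lay above 0, against 49.9% of all genes, and 3 (12.0%) reached 1.5-fold upward, against 2.25%. Their median was 0.11. Ier3, a stress-induced survival gene, had a ratio of 2.95, the orphan receptor gene Nr4a2 one of 1.78 and Phlda1 one of 1.64. Csrnp1 differed by 0.54. Egr1, a zinc finger factor induced by the same serum response pathway as Fos, was lower, at 11.70 against 12.02, a difference of -0.32. The SRF and YAP target genes Cyr61 and Ctgf, named after their values were seen, differed by -0.35 and -0.30. Fos at 0.15 and Egr1 at -0.32 thus lay on opposite sides of 0 in the same libraries.

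Other leucine zipper genes whose products pair or compete with AP-1 proteins had 8 of 18 (44.4%) above 0. That is near the 49.9% of all genes, and their median was -0.01. Batf, an AP-1 partner best known from lymphocytes, was 1.59-fold higher at a low level, 7.37 against 6.71. The cyclic AMP inducible repressor gene Crem differed by 0.52, the small Maf partner gene Bach1 by 0.36 and the stress factor gene Ddit3 by -0.37. Nfe2l2, which encodes the oxidative stress factor NRF2 and partners with small Maf proteins, differed by 0.21, and Atf2, a Jun partner, by 0.04. Genes for turnover and coregulation of Jun and Fos were level, at a median of -0.01 over 20 genes and with a range from -0.23 for the corepressor subunit gene Tbl1xr1 to 0.22 for Trip6. Genes of AU-rich element decay, the route by which Fos and Junb mRNA is cleared, had a median of 0.02 over 11, with Zfp36l1 at 0.60 and Zfp36l2 at -0.24.

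Genes known as AP-1 targets were higher as a list. Of 25 measured, 21 (84.0%) lay above 0, against 49.9% of all genes. At least 1.5-fold higher were 11 (44.0%), where 2.25% of all genes were, and 0 were lower by that much, where 0.952% were. The list median was 0.48. The stromelysin gene Mmp3 was 9.63-fold, the chemokine genes Cxcl1 and Ccl2 7.62-fold and 4.46-fold and the collagenase gene Mmp13 3.57-fold higher in the Cre-labelled library. Several of these genes are also known targets of NF-kappaB and C/EBP factors. At the other end, the cyclin gene Ccnd1 and the urokinase gene Plau, both textbook AP-1 targets named after their values were seen, each differed by -0.52. The AP-1 genes themselves, at up to 1.64-fold, differed less than these 4 leading targets, and the relation between the lists was not tested.

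**Figure D4:**
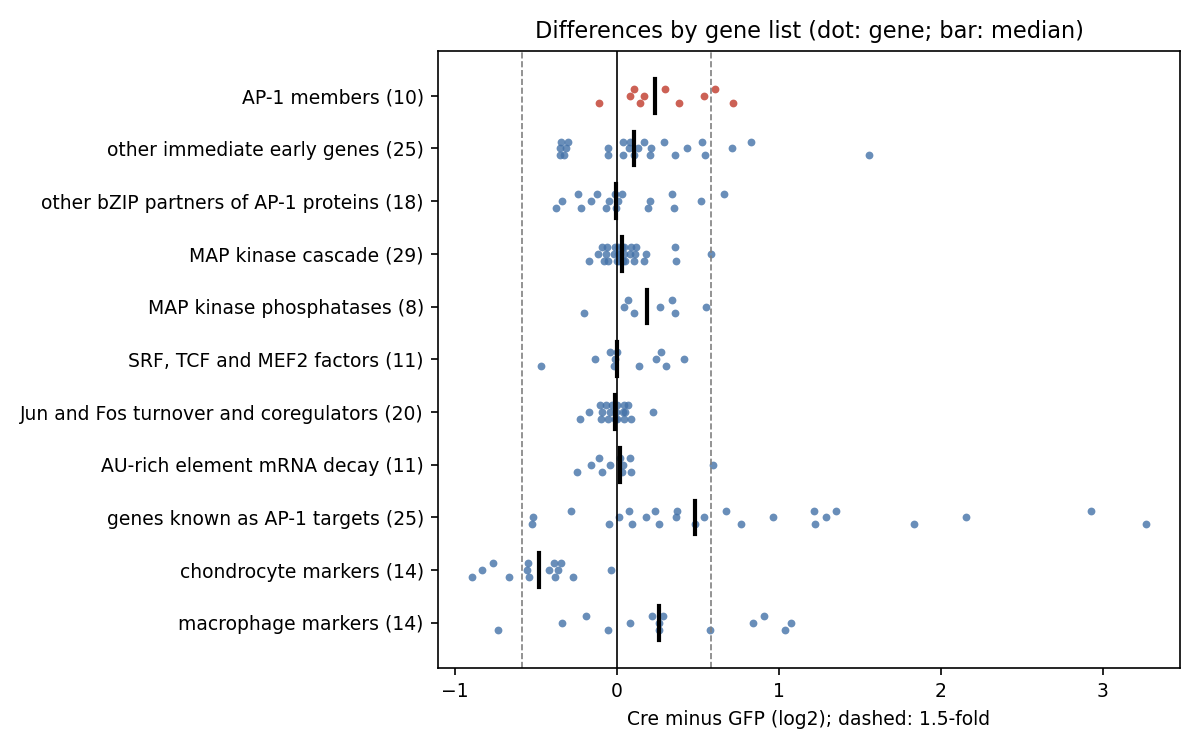
Difference between the Cre-labelled library and the GFP-labelled library (log2) for each measured gene (dot) of 11 lists, with the number measured in brackets, black bars at list medians and dashed lines at 1.5-fold. The AP-1 median (0.23) lies between that of other immediate early genes (0.11) and that of known AP-1 targets (0.48), and the chondrocyte marker median is at -0.48.

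Macrophages are also rich in AP-1 mRNA, and on balance their markers too were higher in the Cre-labelled library. Of 14 markers measured, 4 (28.6%) passed the 1.5-fold line upward, where 2.25% of all genes did, and 1 passed it downward, where 0.952% did. Their median was 0.26. The surface receptor gene Emr1 stood at 12.62 against 11.54 and Cd14 at 11.27 against 10.23, while the mannose receptor gene Mrc1 stood at 10.35 against 11.08. Csf1r, the growth factor receptor that defines the lineage, and the lysosomal gene Cd68 were close to level at 0.08 and -0.05, both named after their values were seen. None of the markers in the table was at 0. No gene in the deposited table had a mean log2 value near 0, so this outcome carries no information. The part of macrophages in the AP-1 differences was not tested.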

How the data were processed

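RNA was measured in 2 libraries, 1 per group, prepared by TruSeq v2 mRNA chemistry (Illumina) per the labels' protocols. Per the submitters' processing notes, the tools were TopHat2 2.0.6, HTSeq (no version) and bcl2fastq 1.8.4, and the build mm10. Annotation, strand setting and transform: not given in the sources used here. What the authors deposited is, per library and gene, a log2 value of the normalized count. A regularized log is inferred from the heading rLogFC and from a spread that is narrowest at low levels (standard deviation 0.15 over genes from 5.64 to 7). The deposited difference is GFP minus Cre in all 13138 rows and was turned round here. Such values hold no reads, so depth is unknown and no interval can be given. Differences, counts and medians were computed with Python 3.11.15, numpy 2.4.6 and pandas 2.3.3 after a minimum mean of 50 on the count scale, and the code was tested on simulated data. Coordinates and exon lengths came from GENCODE release M21 (GRCm38, the assembly of mm10), matched by symbol and chromosome for 10 of 10 members, and promoters from RefSeq GRCm38.p6. Named genes are all members, up to 4 of each related list with the largest differences (3 for other cell types) and 10 fixed by name. Exceptions are marked. The members and lists were chosen with earlier results of these data known. Scaling, minimum, mean for median and exon length were varied.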

Additional observations from a re-analysis of the deposited data

How the results depend on the processing

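Scaling to a median difference of 0, to equal totals, or to equal totals without Rn45s and Lars2 moved every difference by 0.00041, 0.0077 or 0.015 on the log2 scale, and no member changed direction or crossed 1.5-fold. A minimum mean of 500 in place of 50 kept 7 members and left 1 of them, Junb, at least 1.5-fold higher, because Maff lay under that minimum. The median of the members stayed within 0.1 of 0.23 under every alternative run. At the higher minimum, 0 of the other leucine zipper genes were 1.5-fold higher, the median of MAP kinase phosphatases was 0.31 and that of muscle markers, with Ttn left alone, 0.67. The mean in place of the median raised the known AP-1 targets to 0.76. The other 88 alternatives run for list and member summaries stayed within 0.1 of the main value, or within 1.5 times for a count. Many of them could not move, since dropping the minimum added no gene to any list but the endothelial one. Depth is unknown, and a transform that shrinks differences is inferred, so no precision can be given for any member. No pseudocount, left-out replicate or count test could be run, since the table has log2 values and a single library in each group. No paired analysis was possible because neither group has a replicate.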

Other observations

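Fos, Jdp2 and Batf lie near each other on chromosome 12 on the plus strand (GRCm38): Fos at 85473890 to 85477273, Jdp2 at 85599027 to 85639878 and Batf at 85686669 to 85709087. The gap from Fos to Jdp2 is 122 kb and that from Jdp2 to Batf 46.8 kb. Their differences ran in different directions, with Fos at 0.15, Jdp2 at -0.11 and Batf at 0.66. Jund and Junb, both on chromosome 8 and 14274 kb apart, differed by 0.17 and 0.72.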
